A study of Homo sapiens with 30 samples.

Results

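The 3 RNA polymerase II (RNAPII) kinases CDK7, CDK12, and CDK13 and the regulatory subunits that bind them were followed in the neuroblastoma (NB) line SH-EP and its MYCN-expressing derivatives, with and without the CDK9/2 inhibitor CYC065. The genes were chosen by name, as the 6 rows CDK7, CCNH (cyclin H), MNAT1, CDK12, CDK13, and CCNK (cyclin K) of an RNA-Seq table of 26228 genes. All 6 passed the filter on low values that left 11575 genes for testing. In every line, the mRNAs of the 3 kinases fell with CYC065, to between 6.65% and 22.4% of their DMSO level per cell, whereas 33.5% to 109% of the mRNAs of the 3 regulatory subunits remained. As shares of the mRNA, CCNH and CCNK instead rose with CYC065 in every line. Without CYC065, CDK7, CCNH, and CDK12 made up a larger share of the mRNA in each of the 4 MYCN lines than in the parental line. Per cell, these 3 mRNAs were lower than in the parental line over the mean of the MYCN lines.

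SH-EP is an established NB cell line. Its 4 derivatives were stable lines carrying MYCN delivered by retrovirus under an exogenous promoter, either WT or with the T58A, the S62A, or both substitutions (T58A S62A, the double mutant), which remove phosphorylation sites of the protein. The 5 lines were grown in DMEM with 10% FBS and treated for 6 hours with DMSO or 1 μM CYC065, with 3 libraries in each of the 10 groups and 30 libraries in all. Each MYCN allele was present in 1 line, so line and allele cannot be told apart. Nothing in the labels says that the libraries of a group came from separate cultures, so all p-values measure only the spread between these libraries.

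CDK7, cyclin H, and MNAT1 form the CDK-activating kinase, which phosphorylates the cell-cycle CDKs on their activation loop and, as a module of the general transcription factor TFIIH, the C-terminal domain of RNAPII at promoters. CDK12 and CDK13 are large paralogous kinases that each bind cyclin K and phosphorylate the same domain during elongation, and CDK12 is known for sustaining the expression of long DNA repair genes. CYC065 is directed at CDK9, the kinase that releases paused RNAPII, and at CDK2, and MYCN is the transcription factor whose amplification marks high-risk NB.

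On GRCh37, CDK7 lies at chr5:68530622-68573257 on the plus strand, CCNH at chr5:86614233-86708747 on the minus strand, and MNAT1 at chr14:61201460-61436683 on the plus strand. CDK12 lies at chr17:37617739-37723812, CDK13 at chr7:39989720-40139179, and CCNK at chr14:99947506-100001381, each on the plus strand. The genes spanned 42.6 kb (CDK7), 94.5 kb (CCNH), 235.2 kb (MNAT1), 106.1 kb (CDK12), 149.5 kb (CDK13), and 53.9 kb (CCNK). CCNH overlapped RASA1 and CCNK overlapped CCDC85C, both on the opposite strand, and the counting was set for strand-specific libraries.

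The 250 bases upstream of the RefSeq start are printed for CDK7, CDK12, and CCNH, the 3 members that stood furthest above the median of all genes in MYCN lines against SH-EP on either scaling, each 5′ to 3′ on the strand of the gene, with CACGTG, the canonical E-box that MYC proteins bind, in capitals. The sequences are those of the RefSeq promoter table (GRCh38.p14), each of which matched a single place of GRCh37.
CDK7 (chr5:68530372-68530621, plus strand): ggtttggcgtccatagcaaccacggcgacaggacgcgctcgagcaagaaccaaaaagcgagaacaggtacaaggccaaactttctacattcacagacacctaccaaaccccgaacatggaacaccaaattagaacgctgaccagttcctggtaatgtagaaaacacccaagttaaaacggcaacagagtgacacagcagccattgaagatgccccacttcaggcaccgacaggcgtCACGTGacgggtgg
CDK12 (chr17:37617489-37617738, plus strand): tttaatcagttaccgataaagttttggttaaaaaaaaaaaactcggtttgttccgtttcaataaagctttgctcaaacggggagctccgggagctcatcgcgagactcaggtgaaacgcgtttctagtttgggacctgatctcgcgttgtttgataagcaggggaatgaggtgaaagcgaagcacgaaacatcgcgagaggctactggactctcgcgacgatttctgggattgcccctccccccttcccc
CCNH (chr5:86708748-86708997, minus strand): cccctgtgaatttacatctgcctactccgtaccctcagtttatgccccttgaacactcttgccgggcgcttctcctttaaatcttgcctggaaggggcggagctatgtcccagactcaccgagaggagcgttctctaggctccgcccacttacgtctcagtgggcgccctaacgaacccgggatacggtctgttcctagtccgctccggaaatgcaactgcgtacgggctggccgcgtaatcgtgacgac
CDK7 was the only one of the 6 members with CACGTG in this window, and its first base lay 14 bases before the start. The motif reads the same on both strands. It occurred in 6.46% of 27305 promoters of the table and in 9.25% of the 8609 that belonged to tested genes, and no binding was measured in these libraries.

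The labelled identity of the cells was checked first. MYCN was at 0 FPKM (fragments per kilobase of transcript, scaled to library size) in all 6 SH-EP libraries and between 5.08 and 20.1 FPKM in the 24 libraries of the MYCN lines. The mesenchymal NB markers PRRX1, VIM, and COL1A1 were detected in all 30 libraries, whereas the adrenergic marker PHOX2A was at 0 in all 30, DBH was at 0 in 29, and TH reached at most 0.969 FPKM. Depth relative to the deepest library, read from the step size of low values, was 0.47 to 1.0 in DMSO and 0.293 to 0.554 with CYC065. Each of the 6 SH-EP libraries carried a sequencing index that was also given to a library of a MYCN line, so libraries with the same index could not share a sequencing pool. The shared indexes do not show how the other libraries were pooled. An effect of pool therefore cannot be separated from line in comparisons with SH-EP.

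In DMSO, each CDK-activating kinase subunit had a higher mean mRNA level than CDK12, CDK13, and CCNK in every line. MNAT1 and CCNK libraries overlapped in S62A, and the amounts of the complexes were not measured. FPKM is corrected for transcript length, so levels can be compared between genes. In SH-EP, mean FPKM was 22.7 for MNAT1, 22.3 for CCNH, 19.9 for CDK7, 17.6 for CCNK, 11.5 for CDK13, and 10.3 for CDK12 (n = 3), and only the libraries of MNAT1 and CCNH overlapped between neighbors in this order. All 6 lay between the 48.8th and the 71st percentile of the tested genes there. In the 4 MYCN lines CDK12 stood above CDK13, the reverse of SH-EP, and CCNH or CDK7 led the order.

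**Figure D1:**
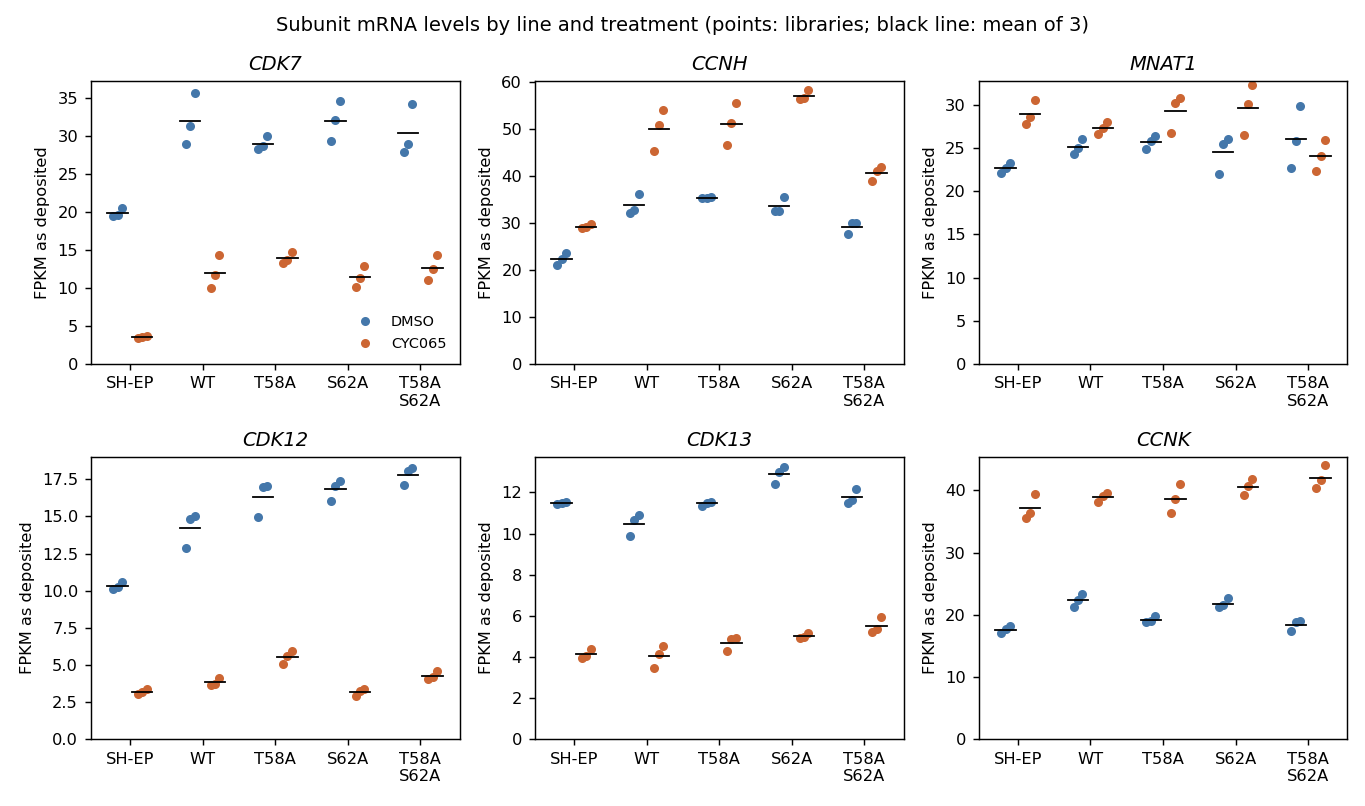
Level of each member in FPKM as deposited (y axes, starting at 0) in the 5 lines (x axes), with DMSO in blue and CYC065 in orange, points for the 3 libraries of a group, and a black line for their mean. CDK7, CDK12, and CDK13 were lower with CYC065 in every line without overlap, and CCNK was higher, at 35.6 to 44.1 FPKM against 17.1 to 23.4 in DMSO.

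The effect of CYC065 was read from FPKM scaled to ERCC spike-ins, synthetic RNAs that the authors added in proportion to cell number, so that a value stands for RNA per cell. Fewer cells than counted and less RNA per cell cannot be told apart in such bulk samples. On this scale the median log2 change of all tested genes was -1.06 in SH-EP and -1.57 in WT. It was -1.08 in T58A, -1.35 in S62A, and -0.97 in the double mutant. Shares left in single lines are to be read beside these medians. At the level of single genes, limma called 75.7% of tested genes lower in SH-EP, 93.7% in WT, 84.2% in T58A, 90.2% in S62A, with 76.3% in the double mutant at an adjusted p under 0.05. Called higher were 0.907%, 0.769%, 1.25%, 0.968%, and 1.85% of tested genes in the same order. Against this background, 5, 6, 5, 6, and 5 of the 6 members were lower and none was higher, also at an unadjusted p under 0.05, so the count of members does not set them apart. Over the mean of the 5 lines all 6 were lower, as were 94.4% of tested genes, with 1.59% higher. What differed between members was the size of the change.

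CDK7, the catalytic subunit of the CDK-activating kinase, fell in every line. In SH-EP its spike-in-scaled FPKM was 59.7, 62.7, and 67.2 in DMSO and 3.93, 5.08, and 5.18 with CYC065, which left 7.48% of the DMSO mean (log2 change -3.72 ± 0.22, SE). In the WT line the libraries were at 35.3, 37.01, and 58.6 in DMSO and 3.59, 5.49, and 6.02 with CYC065, and 11.5% remained. No DMSO library overlapped a CYC065 library in any of the 5 lines.

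The share of CDK7 mRNA left was larger in the T58A (20.4%) and T58A S62A (19.6%) lines than in S62A (12.6%). Relative to the median of all genes in the line, the log2 change of CDK7 was -1.16, -1.37, and -1.60 in the same order. It was -1.52 in WT and -2.66 in SH-EP. The responses of the MYCN lines were not tested against each other. Over the 5 lines the log2 change was -2.87 ± 0.10 (SE, limma adjusted p = 3.42e-20), and 7.39% of tested genes had a lower value. CDK7 also fell on FPKM as deposited, from 19.5, 19.6, and 20.5 to 3.36, 3.54, and 3.64 in SH-EP, and by 1.54 on the log2 scale over the 5 lines, where the median of all genes was 0.10.

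CCNH, the cyclin partner of CDK7, lost far less. Its spike-in-scaled FPKM in SH-EP was 67.7, 68.0, and 77.1 in DMSO and 34.02, 41.0, and 42.6 with CYC065, without overlap. Between 45.5% (WT) and 66.6% (T58A S62A) remained across the lines. The change over the 5 lines was -0.79 ± 0.08 (SE, limma adjusted p = 8.47e-10), which is 0.40 above the median of all genes. On FPKM as deposited CCNH was instead higher with CYC065, by 0.39 to 0.77 in the 5 lines, so its direction rests on the scaling.

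MNAT1, the RING-finger protein that stabilizes the CDK7-cyclin H pair, moved with the bulk of the genes. In SH-EP the libraries were at 67.6, 74.6, and 74.9 spike-in-scaled FPKM in DMSO and 32.6, 41.1, and 43.5 with CYC065, and 33.5% (WT) to 54.0% (SH-EP) remained across the lines. Its change over the 5 lines was -1.17 ± 0.09 (SE, limma adjusted p = 7.92e-13), 0.02 above the median of all genes. As deposited, MNAT1 differed by -0.11 to 0.35, and passed the test as higher in SH-EP and S62A alone.

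CDK12 had the largest change of the 6 members over the mean of the lines. Its spike-in-scaled FPKM in SH-EP was 32.3, 32.7, and 33.7 in DMSO and 3.74, 4.38, and 4.85 with CYC065. In S62A the libraries fell from 12.3, 14.3, and 15.1 to 0.874, 0.932, and 0.964, so that 6.65% remained, and the T58A line kept the most, 14.4%. The change over the 5 lines was -3.20 ± 0.09 (SE, limma adjusted p = 2.58e-22), and 4.41% of tested genes had a lower value. On FPKM as deposited it fell by 1.89.

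CDK13, the paralog of CDK12, fell the least of the 3 kinases over the mean of the lines. In SH-EP the libraries were at 35.2, 36.8, and 37.7 spike-in-scaled FPKM in DMSO and 5.11, 5.60, and 5.85 with CYC065. Between 11.9% (WT) and 22.4% (T58A S62A) remained, again without overlap in any line. The change over the 5 lines was -2.62 ± 0.08 (SE, limma adjusted p = 1.04e-21), and as deposited it fell by 1.30.

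CCNK, the cyclin shared by CDK12 and CDK13, was the member least lowered. Its spike-in-scaled FPKM in SH-EP was 53.9, 56.1, and 58.5 in DMSO and 42.6, 51.1, and 56.0 with CYC065, so the groups overlapped, as they did in T58A and T58A S62A. CCNK fell in WT (-0.88 ± 0.19, SE) and S62A (-0.60 ± 0.19), and did not pass the test in SH-EP (-0.18), T58A (-0.19), or T58A S62A (0.11). The median of all genes also fell most in WT (-1.57) and S62A (-1.35). CCNK lay 0.69 to 1.08 above that median in the 5 lines. The change over the 5 lines was -0.35 ± 0.08 (SE, limma adjusted p = 0.000354), above that of 94.5% of tested genes. As deposited, CCNK was higher in every line, by 0.80 to 1.19 on the log2 scale, so this direction too rests on the scaling.

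**Figure D2:**
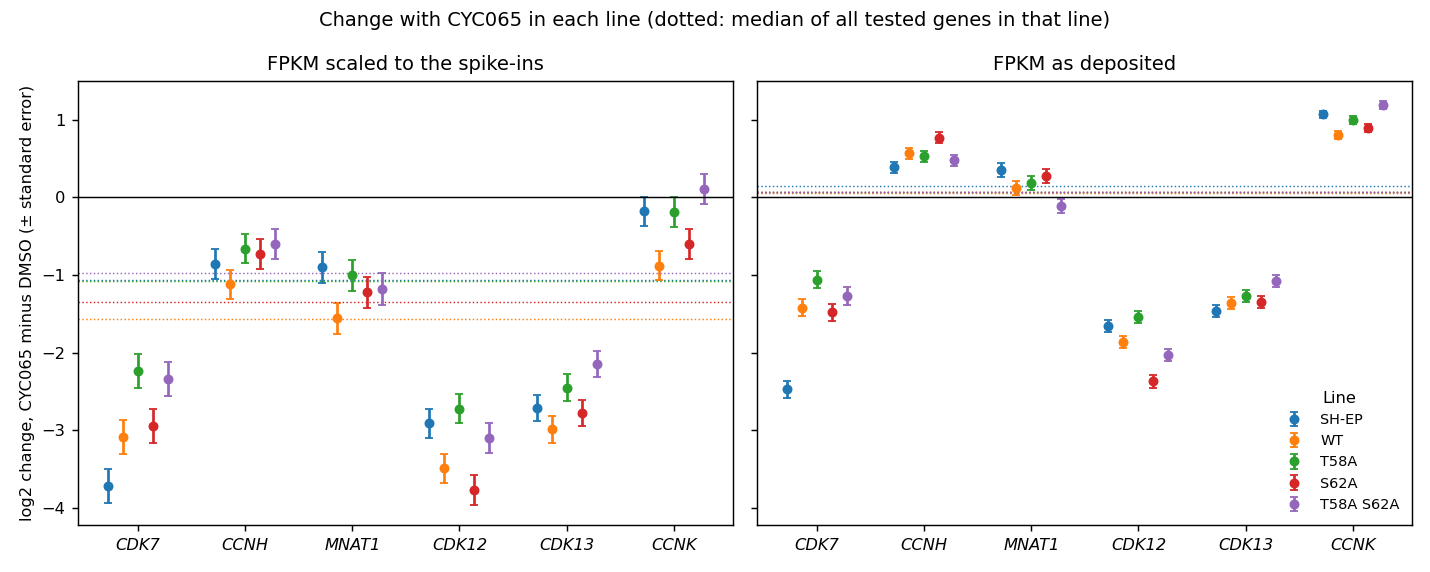
Log2 change with CYC065 (y axis, CYC065 minus DMSO, with standard errors from limma) for each member (x axis) and line (colors), on spike-in-scaled FPKM (left) and on FPKM as deposited (right), with dotted lines at the median of all tested genes in each line. The 3 kinases lie below the dotted lines in both panels, and CCNH and CCNK lie above them in both.

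A ratio of 2 members within a library does not depend on how libraries are scaled, and such ratios are given as descriptions. The values in this paragraph are ratios of the group means of FPKM as deposited, and overlap was read from the ratios within libraries. The ratio of CCNK to CDK12 FPKM was 1.71 in SH-EP in DMSO and 11.5 with CYC065, and rose from between 1.03 and 1.57 to between 6.95 and 12.8 in the MYCN lines. The ratio of CCNH to CDK7 was 0.959 to 1.22 in DMSO in the 5 lines. With CYC065 it was 8.31 in SH-EP and 3.23 to 4.99 in the MYCN lines. MNAT1 to CDK7 went from 1.14 to 8.26 in SH-EP and from between 0.767 and 0.889 to between 1.92 and 2.59 in the MYCN lines. For these 3 ratios no DMSO library overlapped a CYC065 library of its line.

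The balance of the paralogs CDK12 and CDK13 differed between lines in DMSO. The log2 ratio of CDK12 to CDK13 was -0.17, -0.16, and -0.12 in the SH-EP libraries and 0.37 to 0.66 in the 12 libraries of the MYCN lines, without overlap. With CYC065 the ratio was lower in each line, with mean log2 differences of -0.20 in SH-EP, -0.50 in WT, -0.27 in T58A, -1.02 in S62A, with -0.95 in the double mutant, and the libraries overlapped in T58A.

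**Figure D3:**
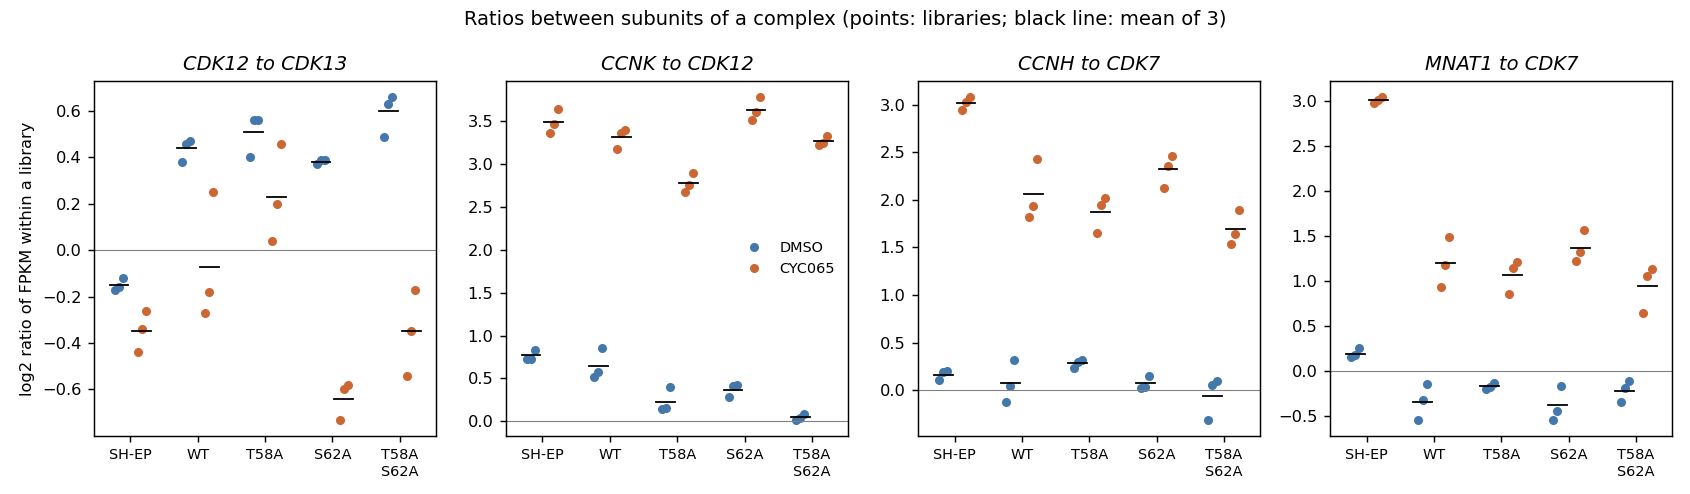
Log2 ratio of FPKM between members of a complex in each library (y axes) by line (x axes), with DMSO in blue, CYC065 in orange, and a black line at the mean of 3 libraries. The kinase partners CCNK, CCNH, and MNAT1 gained on their kinases in every line with CYC065, and CDK12 to CDK13 sits below 0 in SH-EP and above 0 in the MYCN lines in DMSO.

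Whether the response to CYC065 differed between MYCN lines and SH-EP was tested as the difference of the log2 changes. The estimate for CDK7 was a smaller fall in each of the 4 MYCN lines, and it passed the threshold in part of them. The difference was 1.48 ± 0.31 (SE, limma adjusted p = 0.00739) in T58A, 1.38 ± 0.31 (adjusted p = 0.0066) in T58A S62A, and 1.07 ± 0.25 (adjusted p = 0.0078) over the mean of the 4. In WT it was 0.64 (95% CI -0.01 to 1.28, adjusted p = 0.124) and in S62A 0.77 (95% CI 0.12 to 1.42, adjusted p = 0.168), which did not pass the threshold. With only spike-ins of at least 50 FPKM in the scaling, no call remained: the mean difference was 0.93 (adjusted p = 0.162), that of T58A 1.60 (adjusted p = 0.0506), and that of T58A S62A 1.13 (adjusted p = 0.278). By contrast, on FPKM as deposited the mean difference was 1.16 (adjusted p = 2.08e-07) and each of the 4 lines passed. In a fit of only the groups compared, the call in T58A was lost (adjusted p = 0.0509). With CYC065, the deposited CDK7 level was 3.36 to 3.64 FPKM in SH-EP and 9.96 to 14.8 FPKM in the 12 MYCN libraries.

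CDK7 was the 1 member of 6 called in T58A, T58A S62A, and the mean, and 0 of 6 were called in WT and S62A. At an unadjusted p under 0.05 there were 3 members in WT (lower) and 2 in S62A (1 higher, 1 lower). At that threshold there were also 1 in T58A (higher), 2 in T58A S62A (higher, CDK7 and CDK13), and 1 over the mean (higher). No share of all genes was taken at that threshold, so these counts have no background. The shares that follow are at an adjusted p under 0.05. Of all tested genes, 1.89% in WT, 2.28% in T58A, 3.08% in S62A, with 5.21% in the double mutant and 4.17% over the mean had a response called higher than that of SH-EP, and 16.3%, 0.311%, 1.87%, 0.199%, and 1.93% a lower one. For the other 5 members the mean differences lay between -0.36 (CDK12, 95% CI -0.81 to 0.08) and 0.11 (CDK13, 95% CI -0.28 to 0.50), none past the threshold, and both intervals include 0.

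In DMSO, the MYCN lines were compared with SH-EP on FPKM as deposited, that is, as shares of the mRNA in a library. CDK7 was at 19.5, 19.6, and 20.5 FPKM in SH-EP and at 29.0, 31.3, and 35.6 in WT, and all 12 libraries of the MYCN lines, at 27.9 to 35.6 FPKM, lay above those of SH-EP. The log2 difference was 0.54 to 0.68 in the 4 lines and 0.63 ± 0.09 over their mean (SE, limma adjusted p = 1.64e-06). CCNH was at 21.0, 22.3, and 23.5 FPKM in SH-EP and 27.5 to 36.2 in the MYCN lines, again without overlap, and was higher by 0.39 to 0.66, with a mean of 0.56 ± 0.05 (SE, limma adjusted p = 1.46e-09). MNAT1 was at 22.2 to 23.3 FPKM in SH-EP and 22.1 to 29.9 in the MYCN lines. It passed the test in no single line, and over the mean (0.16 ± 0.07, adjusted p = 0.0478) the call was lost on leaving out any 1 of 11 of the 15 libraries, those of SH-EP included.

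CDK12 was at 10.2, 10.3, and 10.6 FPKM in SH-EP and at 12.9, 14.8, and 15.1 in WT, 15.0, 17.0, and 17.1 in T58A, 16.1, 17.1, and 17.4 in S62A, and 17.1, 18.1, and 18.3 in T58A S62A. Every MYCN library lay above SH-EP, and the mean log2 difference was 0.65 ± 0.06 (SE, limma adjusted p = 3.13e-09). CDK13 was at 11.4 to 11.5 FPKM in SH-EP and 9.88 to 13.2 in the MYCN lines, with a mean difference of 0.02 (95% CI -0.11 to 0.14, adjusted p = 0.845). CCNK, at 17.1, 17.7, and 18.2 FPKM in SH-EP, was higher in WT (0.34 ± 0.05, SE) and S62A (0.30 ± 0.05), and its values in T58A (0.12) and T58A S62A (0.06) did not pass.

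In all, 4 members were called higher in WT, 3 in T58A, 4 in S62A, with 3 in the double mutant, where 31.6%, 30.9%, 31%, and 31.2% of tested genes were. None was lower, also at an unadjusted p under 0.05, against 22.6%, 23.3%, 23.4%, and 24.1% of tested genes at an adjusted p under 0.05. Over the mean of the 4 lines 5 of 6 were higher, against 34.6% higher and 26.3% lower of tested genes. The members' median difference over the mean was 0.38 and that of all tested genes 0.06. Mesenchymal markers moved with this comparison: all 5 examined (PRRX1, SNAI2, FN1, VIM, and COL1A1) were lower in each of the 12 MYCN libraries than in each SH-EP library as deposited, with FN1 at 27.0 to 55 against 301 to 305 FPKM and a summed level of 1533 to 2270 against 3460 to 3628 FPKM. Their part in the differences of the members was not tested.

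These directions hold for shares of the mRNA and not per cell. Scaled to the spike-ins, the median of all tested genes was below SH-EP in the MYCN lines, by 1.16 in WT, 0.88 in T58A, 1.86 in S62A, with 0.75 in the double mutant on the log2 scale, and all 6 members were lower over the mean of the 4 lines, CDK7 with -0.62, CCNH with -0.69, CDK12 with -0.59, CCNK with -1.04, MNAT1 with -1.09, and CDK13 with -1.23. Relative to the median of all genes, CDK7 (0.55), CCNH (0.48), and CDK12 (0.57) stayed above it on that scale as well.

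**Figure D4:**
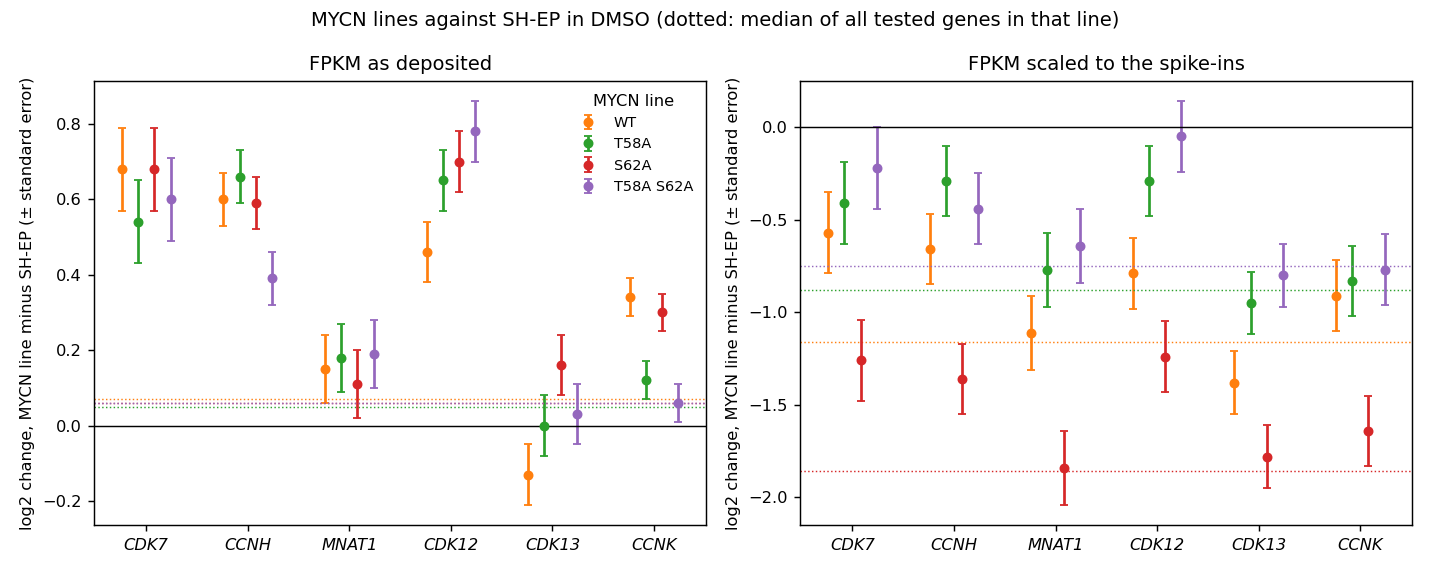
Log2 difference between each MYCN line (colors) and SH-EP in DMSO (y axes, with standard errors from limma) for each member (x axes), on FPKM as deposited (left) and scaled to the spike-ins (right), with dotted lines at the median of all tested genes. CDK7, CCNH, and CDK12 lie above 0 on the left and below 0 on the right, and above the dotted line of their line in both panels.

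The phosphorylation-site mutants were then compared with WT MYCN in DMSO, on FPKM as deposited. CDK12 was higher in S62A (0.24 ± 0.08, SE, limma adjusted p = 0.0262) and T58A S62A (0.32 ± 0.08, adjusted p = 0.00373), and CDK13 in S62A (0.30 ± 0.08, adjusted p = 0.00629). CCNK was lower in T58A (-0.22 ± 0.05, adjusted p = 0.00389) and T58A S62A (-0.28 ± 0.05, adjusted p = 0.000363), and CCNH in T58A S62A (-0.21 ± 0.07, adjusted p = 0.02). CDK7 differed by -0.14 to 0.00 and MNAT1 by -0.04 to 0.05, with no call. These were 1 lower member of 6 in T58A (13% of tested genes lower, 10.7% higher), 2 higher in S62A (10.1% higher, 14% lower), and 1 higher and 2 lower in the double mutant (9.43% higher, 14.2% lower). The CDK12 call in S62A was lost on leaving out 1 of the WT libraries (0.17) or either of 2 S62A libraries (0.22 and 0.23), and that of CCNH in the double mutant on leaving out 1 of the WT (-0.16) or 1 of the double mutant libraries (-0.17). In a fit of only the groups compared, 4 of the 6 calls were lost, CDK12 in S62A (adjusted p = 0.0966) and, in the double mutant, CDK12 (0.0646), CCNK (0.0555), and CCNH (0.111). On the spike-in scale, 5 of these 6 values changed sign, CDK12 in T58A S62A being the exception, while each kept its sign relative to the median of all genes.

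The other genes of the pathway were read from 5 lists, each described by its counts beside all tested genes, of which 94.4% were called lower with CYC065 over the mean of the lines (median -1.20) and 34.6% higher and 26.3% lower in the MYCN lines in DMSO (median 0.06). Read against these shares, no count with CYC065 sets a list apart. The TFIIH core, which carries the CDK-activating kinase, was lower with CYC065 over the mean of the lines in 7 of 7 subunits on the spike-in scale, with a list median of -1.39 against -1.20 for all genes, while 2 of 7 lay above 0 on FPKM as deposited. GTF2H1 fell by 1.91 and the helicase ERCC3 by 1.39. GTF2H2 has near-identical copies in the genome and its value is uncertain. In DMSO, 4 of 7 were higher in the MYCN lines as deposited, led by the helicase ERCC2 (0.62 ± 0.08, SE), which was below 0 per cell (-0.62).

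Of 11 other transcription-associated CDKs and cyclins, 10 were lower with CYC065 on the spike-in scale (list median -0.92), the exception being CCNT2, and 6 of 11 lay above 0 as deposited. CDK8, the Mediator kinase, changed by -2.98 ± 0.11 (SE), and fell as deposited too, by 1.67. CDK9 fell by 1.69. CCNT1, the cyclin of CDK9, was the 1 gene of 11 whose response in the MYCN lines was called different from SH-EP over the mean (0.75 ± 0.19, limma adjusted p = 0.0164). Of all tested genes, 4.17% were called higher there and 1.93% lower. At an unadjusted p under 0.05, 1 gene of the list was higher and 3 were lower, and no share of all genes was taken at that threshold. The CCNT1 call was not checked under the alternative settings. In DMSO, CDK8 (0.67) and its cyclin CCNC (0.42) were higher in the MYCN lines and CDK19 (-0.37) and CCNL2 (-0.22) lower as deposited, and all 11 were below 0 per cell. CDK11A and CDK11B, which are counted in the list, are near-identical copies.

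The 4 cell-cycle CDKs that CDK7 activates were all lower with CYC065 on the spike-in scale, CDK1 by 1.45 and CDK6 by 0.64 (list median -0.87), and 3 of the 4 lay above 0 as deposited. The 6 phosphatases of the RNAPII C-terminal domain, which oppose these kinases, were all lower, with a list median of -2.29, and 5 of 6 were below 0 as deposited too. CTDP1 changed by -3.50 ± 0.09 (SE) per cell and -2.22 as deposited, and CTDSP1 by -3.04 and -1.72. In DMSO, CTDP1 was higher in the MYCN lines by 0.82 ± 0.10 as deposited and below 0 per cell (-0.41). CTDSP1 was the 1 phosphatase of 6 whose response was called different from SH-EP over the mean (-0.94 ± 0.26, limma adjusted p = 0.027). Of all tested genes, 4.17% had a response called higher there and 1.93% a lower one. The CTDSP1 call was not checked under the alternative settings.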

How the data were processed

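The members and gene lists were chosen with earlier results of these data known. Per the labels and the study's methods, RNA received ERCC spike-ins according to the number of cells, and poly(A) RNA went into strand-specific libraries. The authors aligned reads to hg19 with HISAT2 and computed FPKM with Cufflinks, and the annotation is not given in the sources used here. The deposited FPKM table holds 26228 genes and 92 spike-ins in 30 libraries, is not scaled to the spike-ins, and has 40.6% to 45.8% of genes at 0 per library. FPKM carry no read counts, so no count test or counting interval was made.

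Columns named line and treatment, with a final digit that does not match the replicate numbers of the sample titles. For effects of CYC065, libraries were brought to an equal median log2 value over 55 spike-ins (mean FPKM of 1 or more); values were used as deposited between lines in DMSO. A limma 3.58.1 fit over all 10 groups, on each scale, used log2(FPKM + 0.1) of the 11575 genes that averaged 1 FPKM or more, with Benjamini-Hochberg adjustment at 0.05, two-sided. Fold changes are on this scale and understate changes of low genes. The fit was tested on simulated data. All members were named, and from each list genes among the 4 with the largest mean change over the lines. Alternatives were other pseudocounts, filters, scalings, samples in the fit, and leaving out each library. No pair of libraries was identical. Gene positions are from GENCODE on GRCh37.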

Additional observations from a re-analysis of the deposited data

Results flagged for a closer look

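The response of CDK7 to CYC065 differed between MYCN lines and SH-EP by the interaction test, which is why it is listed here: by 1.48 on the log2 scale in T58A, 1.38 in T58A S62A, and 1.07 over the mean of the 4 MYCN lines (limma adjusted p = 0.00739, 0.0066, and 0.0078). The log2 change was -3.72 in SH-EP, -3.09 in WT, -2.24 in T58A, -2.95 in S62A, with -2.34 in the double mutant on the spike-in scale. Relative to the median of all genes in the line, it was -2.66, -1.52, -1.16, -1.60, and -1.37 in the same order. The mean difference ranged from 0.94 to 1.14 when each library was left out in turn. With spike-ins of at least 50 FPKM alone, none of the 3 was called, with 0.93 over the mean (adjusted p = 0.162), 1.60 in T58A (0.0506), and 1.13 in T58A S62A (0.278). The T58A call was also lost in a fit of only the groups compared (0.0509). How all libraries were pooled for sequencing is not known, so an effect of pool cannot be separated from line here.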

How the results depend on the processing

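No paired analysis was possible because the columns carry no replicate number that matches the labels. Direction turned with the scaling. With spike-in scaling, log2 differences of MYCN lines from SH-EP in DMSO changed sign. They became, for CDK7 -0.57 (WT), -0.41 (T58A), -1.26 (S62A), -0.22 (T58A S62A), -0.62 (the mean), CCNH -0.66 (WT), -0.29 (T58A), -1.36 (S62A), -0.44 (T58A S62A), -0.69 (the mean), MNAT1 -1.11 (WT), -0.77 (T58A), -1.84 (S62A), -0.64 (T58A S62A), -1.09 (the mean), CDK12 -0.79 (WT), -0.29 (T58A), -1.24 (S62A), -0.05 (T58A S62A), -0.59 (the mean), CDK13 -1.78 (S62A), -0.80 (T58A S62A), -1.23 (the mean), CCNK -0.91 (WT), -0.83 (T58A), -1.64 (S62A), -0.77 (T58A S62A), -1.04 (the mean). No member was then higher (0), and 6 (WT), 3 (T58A), 6 (S62A), 4 (T58A S62A), and 6 (mean) were lower. Mutants against WT MYCN became, for CDK7 0.16 (T58A), -0.69 (S62A), 0.35 (T58A S62A), CCNH 0.21 (T58A S62A), CDK12 -0.45 (S62A), CDK13 -0.40 (S62A), CCNK 0.08 (T58A), 0.14 (T58A S62A), with 0 lower in T58A, 0 higher and 6 lower in S62A, and 2 higher and 0 lower in T58A S62A. With CYC065 on FPKM as deposited, changes became, for CCNH 0.39 (SH-EP), 0.57 (WT), 0.53 (T58A), 0.77 (S62A), 0.48 (T58A S62A), 0.55 (the mean), MNAT1 0.35 (SH-EP), 0.12 (WT), 0.18 (T58A), 0.27 (S62A), 0.16 (the mean), CCNK 1.07 (SH-EP), 0.80 (WT), 1.00 (T58A), 0.89 (S62A), 0.99 (the mean). Then 3, 2, 2, 3, 2, and 3 members were higher and 3 lower in SH-EP, the 4 MYCN lines, and the mean. Centering libraries on their median gave, for CCNH 0.53 (SH-EP), 0.74 (WT), 0.71 (T58A), 0.94 (S62A), 0.63 (T58A S62A), 0.71 (the mean), MNAT1 0.49 (SH-EP), 0.30 (WT), 0.37 (T58A), 0.44 (S62A), 0.05 (T58A S62A), 0.33 (the mean), CCNK 1.21 (SH-EP), 0.98 (WT), 1.19 (T58A), 1.06 (S62A), 1.16 (the mean), with 3 higher and 3 lower, and 2 higher in T58A S62A.

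Differences of response from SH-EP as deposited became, for CCNH 0.18 (WT), CDK13 0.10 (WT), 0.11 (S62A), and over the mean CCNH (0.20) and CDK12 (-0.30) then passed, with 2 members higher and 1 lower, as in S62A, against 1 and 1 in WT and 2 and 2 in T58A S62A. Centered, they were, for CCNH 0.21 (WT), CDK13 0.14 (WT), 0.14 (S62A), and over the mean CCNH (0.23), CDK12 (-0.26), and CDK13 (0.22) passed, with 3 higher and 1 lower, and counts in single lines as before. With spike-ins of at least 50 FPKM, CDK7 over the mean was 0.93 and not called, 0 members were higher there, in T58A, and in T58A S62A, and reversals were, for CCNH -0.22 (S62A), -0.06 (the mean), MNAT1 0.01 (T58A), CDK13 -0.02 (the mean), CCNK 0.11 (T58A), with CCNK at -0.09 with CYC065 in T58A S62A. A pseudocount of 1 gave CDK13 responses of 0.04 (WT) and 0.29 (S62A), and a CCNK to CDK12 log2 change of 2.641. In fits of only the groups compared, MNAT1 over the mean of lines (0.16, also without a filter, and 0.14 centered) was not called, and counts were 5 higher in T58A against SH-EP, 1 higher in S62A against WT, 0 higher and 0 lower in T58A S62A against WT, and for the response 0 higher in T58A and 1 lower in S62A. A filter at 5 FPKM gave 1 lower response in WT, a pseudocount of 0.01 gave 1 lower in S62A, and a pseudocount of 1 gave 1 higher in T58A against WT. The causes of these changes were not tested, apart from what the scaling does by construction.

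Leaving out each library in turn, MNAT1 over the mean of lines ranged from 0.13 to 0.18 and was not called without any 1 of 11 of 15 libraries, and members higher over that mean numbered 4 to 5, and the response difference of CCNH over the mean ranged from -0.02 to 0.14. Values near 0 that turned sign were CDK13 in T58A against SH-EP (-0.01 to 0.0), CCNH in S62A against WT (-0.05 to 0.04), CDK7 in S62A against WT (-0.07 to 0.08), MNAT1 in S62A against WT (-0.09 to 0.03), CDK7 in T58A S62A against WT (-0.16 to 0.0), MNAT1 in T58A S62A against WT (-0.06 to 0.14), CCNK in T58A S62A with CYC065 (-0.02 to 0.28), CCNH in T58A in response (-0.03 to 0.32), CCNK in T58A in response (-0.21 to 0.1), CDK12 in T58A in response (-0.1 to 0.34), MNAT1 in T58A in response (-0.36 to 0.02). Counts ranged from 0 to 2 for lower responses in WT, 1 to 2 higher in S62A and 0 to 1 higher in T58A against WT, and 1 to 2 lower in T58A S62A against WT. The kinases fell with CYC065 in every line under all alternatives run. Depth is unknown beyond its ratio between libraries, so low values have no counting error.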

Other observations

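The DNA repair and replication stress genes are a class known to depend on CDK12. All 17 genes of the list were lower with CYC065 over the mean of the 5 lines on the spike-in scale. So were 94.4% of all tested genes, and the list median was -1.54 against -1.20 for all tested genes. On FPKM as deposited, 11 of 17 lay below 0 and 6 above. The genes named here for CYC065 were among the 4 with the largest change and do not stand for the list. The helicase gene BLM changed by -3.51 ± 0.11 (SE) and FANCM, a translocase of the Fanconi anemia pathway, by -2.55 ± 0.14, and both lay below 0 as deposited as well (-2.23 and -1.36). BARD1, which encodes a ubiquitin ligase subunit, changed by -2.62 ± 0.12 per cell and -1.34 as deposited. In DMSO, 11 of 17 were higher and none lower in the MYCN lines as deposited (list median 0.27 against 0.06), where 34.6% of tested genes were higher and 26.3% lower, with RAD51C at 0.74 ± 0.09 and FANCI at 0.38 ± 0.04, while all 17 were below 0 per cell. In limma, 0 of 17 had a response over the mean that differed from SH-EP, where 4.17% of tested genes were called higher and 1.93% lower. At an unadjusted p under 0.05 there was 1 (BLM, 0.84 ± 0.27), a threshold at which no share of all genes was taken.

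The genes whose log2 FPKM as deposited ran most like that of a member over the 30 libraries are given as a description, since treatment and line are shared by all points. For CDK7 these were KDM2A (Pearson r = 0.982), GNL3 (0.980), and BYSL (0.977). For CDK12 they were ANKRD40 (0.991), UBTF (0.986), and MED1 (0.986), and for CDK13 SMAD4 (0.986), ANKS1A (0.984), and ZNF318 (0.983). For CCNK they were GADD45A (0.986), RPL11 (0.983), and IER2 (0.983), and for CCNH GPD1L (0.972), PAICS (0.966), and GSPT1 (0.962). For MNAT1 the highest r was 0.776, followed by CFL2 (0.746) and ZAK (0.731).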
